A study of Mus musculus with 10 samples.

Results

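Cells pass from G1 into S phase through a small set of proteins, and 10 of the genes that encode them were followed here in leukemia initiating cells of the mouse. They were the D cyclins Ccnd1, Ccnd2 and Ccnd3, their kinases Cdk4 and Cdk6, the INK4 inhibitors Cdkn2a, Cdkn2c and Cdkn2d, the inhibitor Cdkn1b, and Rb1. The genes were taken by name, 10 of the 55494 genes of the annotation, and all 10 were among the 13729 genes with enough reads to be tested. The rule used no measured value, but the genes were chosen with earlier results of these data known.

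Leukemia initiating cells (LIC) came from pups of 13 days that carried the RFP/RET transgene (Eu-RET). They were isolated from spleen by flow cytometry, and their RNA was sequenced in bulk. Before sorting, 5 pups had been given 20 µg of Poly(A:U), a double-stranded RNA made by synthesis and sensed by Toll-like receptor 3, and 5 pups had been given 50 µl of PBS. All libraries date from 7 days after treatment, and both groups carry the transgene, so there is no library from cells without it. The study asked how Poly(A:U) affects these cells, and per its design text each library came from its own pup. The name of the line refers to the immunoglobulin heavy chain enhancer Eµ, which is active in the B lineage.

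D cyclins bind and activate Cdk4 and Cdk6, and the active kinases phosphorylate the retinoblastoma protein, the product of Rb1. The phosphorylated protein lets go of E2F transcription factors, which then switch on genes of DNA replication. INK4 proteins bind Cdk4 and Cdk6 and keep the cyclin out, whereas p27, the product of Cdkn1b, binds cyclin and kinase together. In B cell precursors of the mouse, cyclin D3 is the D cyclin on which the expansion of pre-B cells is known to depend. Cdkn2a encodes a pair of unrelated proteins, the INK4 inhibitor p16Ink4a and p19Arf, which stabilises p53 by holding back Mdm2.

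The libraries held between 17859006 and 22587871 estimated reads. Markers of B cell precursors, 11 genes that include Igll1, Vpreb1 and Rag1, were present in every library and summed to 11686 to 14342 CPM (reads of a gene scaled to a library of 1000000 reads) in Poly(A:U) libraries and 10007 to 15941 CPM in PBS libraries. PBS 4 stood apart. It had 16006 genes with at least 10 reads, against 13396 to 14702 in the other libraries, the lowest B precursor sum, and the highest sums of macrophage markers (200 CPM) and T cell markers (81.3 CPM). Of the T cell list, PBS 4 had 53.9 CPM of Cd3e, 12.6 of Trac, 6.64 of Cd4 and 3.69 of Cd3g. Cd3d and Cd8a had 0.147 CPM each, and Cd5, at 3.39 CPM, was the lowest of the 10 libraries. Macrophage marker sums were 43.1 to 64.6 CPM in Poly(A:U) libraries, against 140 to 170 CPM in PBS 1 to PBS 3 and 47.8 CPM in PBS 5. Lyz2 alone gave 107, 141 and 116 CPM of the sums of PBS 1 to PBS 3. C1qa had 2.20, 0.728 and 1.81 CPM in these libraries, against 32.5 CPM in PBS 4. Mpeg1 had 16.5, 13.4 and 11.5 CPM in them, against 20.8 CPM in PBS 4. PBS 1 to PBS 3 shared the start of their library names and had neutrophil marker sums of 737 to 1103 CPM, against 31.4 to 276 CPM in Poly(A:U) libraries and 51.7 and 53.6 CPM in the other PBS libraries. Erythroid marker sums ran from 1360 to 12328 CPM in Poly(A:U) libraries, and were 138, 432 and 307 CPM in PBS 1 to PBS 3 and 2472 and 11924 CPM in PBS 4 and PBS 5. Mature B cell marker sums were 569 to 649 CPM in Poly(A:U) libraries, against 494 CPM in PBS 4 and 688 to 743 CPM in the other PBS libraries. By a shared part of the library name, Poly(A:U) 1 goes with PBS 5, and Poly(A:U) 5 goes with PBS 4. The names do not say what they stand for. Of the marker lists of other cells, 8 of 10 neutrophil, 10 of 10 macrophage, 3 of 8 T cell and 9 of 9 erythroid genes had enough reads to be tested, and no gene of these lists was at 0 in all 10 libraries.

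Some of these genes have more than 1 start, and the gene sum hides which start was used. Cdkn2a is the clearest case. Its Ink4a transcript, which encodes p16Ink4a, and its Arf transcript, which encodes p19Arf, join different first exons to the same second exon, on the minus strand of chromosome 4 (mm10, GENCODE M21). The last 30 bases of each first exon are given in lower case and the first 30 bases of the shared exon, chr4:89276645-89276985, in capitals.
Cdkn2a, Ink4a transcript (first exon chr4:89281986-89282192): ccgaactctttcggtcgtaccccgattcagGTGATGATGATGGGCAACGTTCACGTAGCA
Cdkn2a, Arf transcript (first exon chr4:89294334-89294653): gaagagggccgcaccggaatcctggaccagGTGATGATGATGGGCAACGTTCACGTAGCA
The capitals are identical, and only the lower case part tells the transcripts apart. The first exons lie 12142 bases from each other. The Ink4a first exon brings 126 coding bases and the Arf first exon 190 coding bases, so that the shared exon is entered at phase 0 from Ink4a and at phase 2 from Arf, and the same bases are read in different frames. The annotated coding sequences hold 168 codons for Ink4a and 169 codons for Arf.

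The windows before these first exons differ in composition as well. RefSeq (GRCm38.p6) windows run from 250 bases before to 50 bases after a gene's start, and 10 such windows matched 7 of the 10 genes, all but Ccnd1, Ccnd2 and Rb1. They were searched on both strands for the E2F cores TTCCCGC and TTGGCGC, the GC box GGGCGG, the E-box CACGTG and the TATA box TATAAA, and matches are in capitals (a GC box on the other strand reads CCGCCC, and neighbouring boxes can overlap). The windows shown are those of the starts compared in Cdkn2a and Ccnd3 and that of Cdk4.
Cdkn2a, Arf start (chr4:89294570-89294869, minus strand): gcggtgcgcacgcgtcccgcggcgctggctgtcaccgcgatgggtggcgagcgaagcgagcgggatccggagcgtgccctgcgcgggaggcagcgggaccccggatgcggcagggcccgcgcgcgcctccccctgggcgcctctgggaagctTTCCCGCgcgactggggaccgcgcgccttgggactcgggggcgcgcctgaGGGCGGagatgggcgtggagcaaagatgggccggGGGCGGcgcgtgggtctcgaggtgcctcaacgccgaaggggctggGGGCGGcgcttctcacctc
Cdkn2a, Ink4a start (chr4:89282143-89282442, minus strand): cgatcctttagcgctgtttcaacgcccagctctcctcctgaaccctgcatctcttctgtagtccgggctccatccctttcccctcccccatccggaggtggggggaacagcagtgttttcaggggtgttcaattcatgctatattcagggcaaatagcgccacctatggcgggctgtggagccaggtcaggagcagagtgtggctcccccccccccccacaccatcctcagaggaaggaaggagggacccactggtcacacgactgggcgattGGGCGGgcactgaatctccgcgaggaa
Ccnd3, inner start (chr17:47593217-47593516, plus strand): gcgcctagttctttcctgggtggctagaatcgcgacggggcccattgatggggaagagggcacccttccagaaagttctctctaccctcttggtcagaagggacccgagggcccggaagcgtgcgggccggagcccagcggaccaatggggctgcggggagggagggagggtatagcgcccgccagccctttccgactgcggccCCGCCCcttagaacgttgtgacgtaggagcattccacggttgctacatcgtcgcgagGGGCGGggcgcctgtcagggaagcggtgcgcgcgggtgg
Ccnd3, upstream start (chr17:47504801-47505100, plus strand): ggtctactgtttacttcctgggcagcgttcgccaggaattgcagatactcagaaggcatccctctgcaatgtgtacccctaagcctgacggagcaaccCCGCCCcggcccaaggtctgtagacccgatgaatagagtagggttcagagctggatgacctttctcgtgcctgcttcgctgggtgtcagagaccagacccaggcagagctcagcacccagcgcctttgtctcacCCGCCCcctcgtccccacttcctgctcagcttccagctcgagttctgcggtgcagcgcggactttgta
Cdk4 (chr10:127063285-127063584, plus strand): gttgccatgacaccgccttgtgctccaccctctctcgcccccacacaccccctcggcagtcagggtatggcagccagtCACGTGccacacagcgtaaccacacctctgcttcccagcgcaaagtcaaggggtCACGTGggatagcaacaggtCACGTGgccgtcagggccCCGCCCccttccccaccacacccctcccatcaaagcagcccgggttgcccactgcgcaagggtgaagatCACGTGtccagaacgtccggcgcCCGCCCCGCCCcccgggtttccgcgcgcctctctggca
The Arf window holds 45 CpG and is 77% G and C, against 12 CpG and 60.3% in the Ink4a window. The median is 24.5 CpG over the 10 windows and 7 CpG over all 32851 windows of the table. TTCCCGC is in the Arf window and in the upstream window of Cdkn2c, 2 of 10, and in 4.6% of all windows. That Cdkn2c window lies inside the first exon of the GENCODE model. TTGGCGC is in 0 of the 10 windows and in 2.45% of all windows. The GC box is in 8 of the 10 windows, against 35.7% of all windows, and the TATA box is in the window of Cdk6 alone among the 10, against 13.6% of all windows. CACGTG, the sequence that Myc with its partner Max binds, is in 3 of the 10 windows, those of Cdk4, Cdk6 and the inner start of Cdkn2c, against 7.15% of all windows. Cdk4 has 4 copies of it, and 8 of all 32851 windows (0.0244%) have as many or more. These matches describe letters in a window and not binding.

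Levels of different genes were compared per length of transcript, as the authors' TPM (transcripts scaled by length to a library of 1000000) summed over the transcripts of a gene. Ccnd3 had the highest level of the 10, 653 ± 45 TPM (SD, n = 10 libraries), and Cdk4 followed at 583 ± 42 TPM. These levels exceeded those of the other genes in every library. The inhibitors came next, with Cdkn2d at 107 ± 12 TPM, Cdkn1b at 79.6 ± 9.7 TPM and Cdkn2c at 76.5 ± 13.1 TPM. Rb1 stood at 30.5 ± 5.9 TPM, Cdk6 at 23.5 ± 6.7 TPM and Cdkn2a at 19.1 ± 3.2 TPM. The other D cyclins closed the order, Ccnd2 at 5.50 ± 2.04 TPM and Ccnd1 at 1.57 ± 0.67 TPM. The ranges over the 10 libraries did not overlap between Cdk4 and Cdkn2d, Cdkn2c and Rb1, Cdkn2a and Ccnd2, or Ccnd2 and Ccnd1. They overlapped for the other neighbours: Ccnd3 was above Cdk4 in 9 of 10 libraries, Cdkn2d above Cdkn1b in 10, Cdkn1b above Cdkn2c in 8, Rb1 above Cdk6 in 9 and Cdk6 above Cdkn2a in 8.

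**Figure D1:**
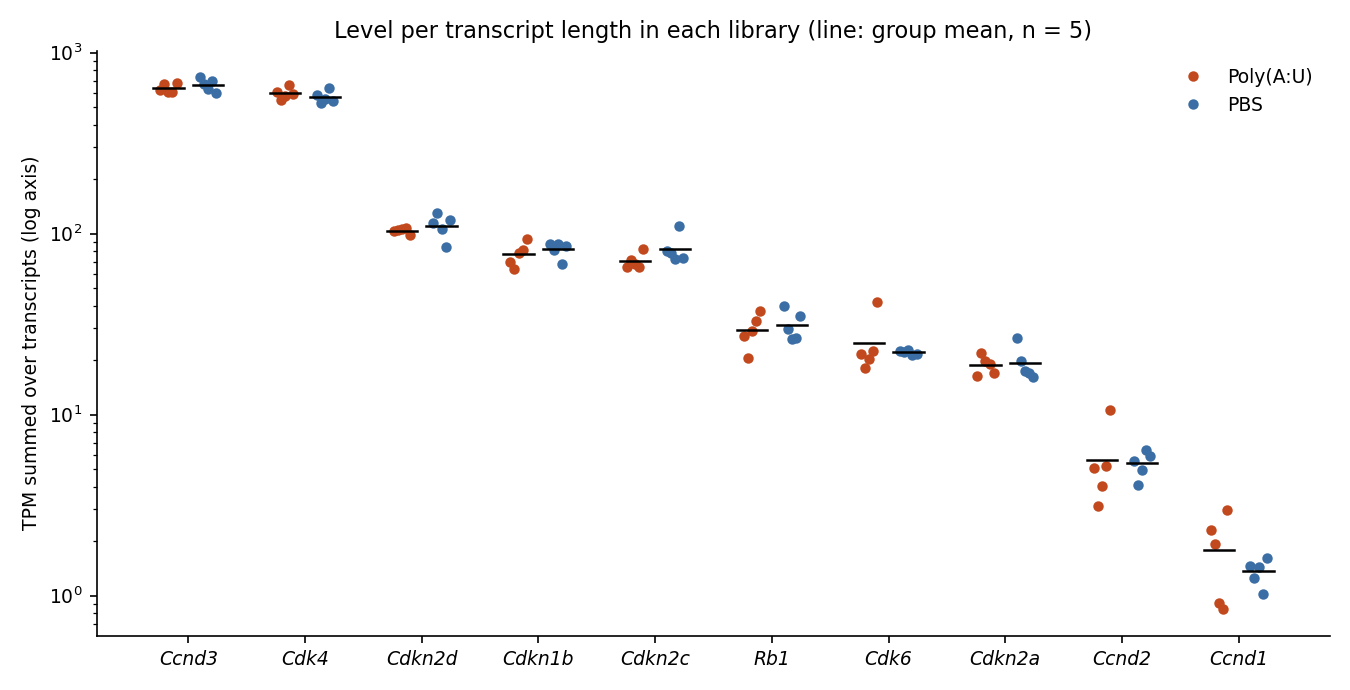
Level of each gene per transcript length in every library, as TPM summed over transcripts on a log axis, with Poly(A:U) libraries left of PBS libraries and a line at each group mean (n = 5). Ccnd3 and Cdk4 lie above the other 8 genes in each library, Ccnd1 lies below all others, and the groups overlap for each gene.

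Cyclin D3 transcripts made up nearly the whole D cyclin pool. Ccnd3 held 98.9 ± 0.49% of the TPM of the 3 D cyclins in Poly(A:U) libraries and 99.0 ± 0.17% in PBS libraries (SD, n = 5 each), with a range of 98.1 to 99.3% over the 10 libraries. The lowest share, 98.1%, was that of Poly(A:U) 5, in which Ccnd2 reached 10.6 TPM. In that library a pair of short transcript models of Ccnd2 held 1.89 and 1.57 TPM, while the longest coding model held 6.03 TPM, close to the 5.93 TPM of PBS 5. 

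The kinases were unequal too, by an amount that depends on the length used. The ratio of Cdk4 to Cdk6 TPM was 26.1 ± 6.8 in Poly(A:U) libraries and 25.8 ± 2.3 in PBS libraries, and 14.1 in Poly(A:U) 5, the lowest of all. The annotated transcripts of Cdk4 include models with retained introns, which took 56.3 ± 4.4% of its TPM over the 10 libraries. A model of 468 bases alone held 278 ± 21 TPM. The protein-coding models summed to 167 ± 29 TPM, 28.6% of the gene. Counted instead as CPM per kilobase of the longest coding transcript, Cdk4 had 145 ± 15 and Ccnd3 431 ± 38, and their ranges no longer overlapped. The ratio of Cdk4 to Cdk6 on that scale was 11.3 ± 2.5 in Poly(A:U) libraries and 10.4 ± 1.7 in PBS libraries. Ccnd3, Cdk4 and Cdkn2d kept ranks 1, 2 and 3 on this scale, and Cdkn2c, at 34.0 ± 6.9, and Cdkn1b, at 27.8 ± 2.7, exchanged ranks 4 and 5.

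Arf was the main product of Cdkn2a in every library. The Arf transcript had 15.0, 20.2, 19.01, 18.2 and 15.8 TPM in Poly(A:U) 1 to 5, against 23.3, 18.8, 16.3, 16.7 and 14.6 TPM in PBS 1 to 5. The Ink4a transcript had 1.30, 1.74, 0.833, 0.833 and 1.13 TPM in Poly(A:U) 1 to 5, against 3.19, 1.13, 1.04, 0.149 and 1.49 TPM in PBS 1 to 5. The groups overlapped for both transcripts, and the highest and lowest Ink4a values were both in PBS libraries, PBS 1 and PBS 4. Arf took 93.8 ± 1.8% of Cdkn2a TPM in Poly(A:U) libraries and 93.2 ± 4.2% in PBS libraries, a difference of 0.542 percentage points (exact two-sided permutation test, p = 0.81, n = 5 each, where the smallest p possible is 0.00794). The sign of this difference turned in 4 of 13 alternatives, and it was -0.781 points without PBS 1. Ink4a rested on 1.72 to 32.9 estimated reads per library and Arf on 159 to 292. As a share of the reads of the gene, Ink4a ranged from 0.957% in PBS 4 (95% Wilson interval 0.263 to 3.42%) to 11.4% in PBS 1 (8.22 to 15.6%), intervals that cover counting error only.

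Most Ccnd3 transcripts were assigned to its inner start. The model whose first exon begins at position 47593470 of chromosome 17, had 571 ± 29 TPM in Poly(A:U) libraries and 598 ± 57 TPM in PBS libraries, or 89.2 ± 1.2% and 89.7 ± 1.7% of the gene. The transcripts that begin at the upstream starts near position 47505051 summed to 51.9 ± 7.8 TPM in Poly(A:U) libraries and 51.2 ± 13.6 TPM in PBS libraries. The inner model and a pair of upstream models contain the same coding blocks of 292 codons in the annotation. The upstream share was 8.09 ± 0.97% in Poly(A:U) libraries and 7.77 ± 2.28% in PBS libraries (exact two-sided permutation test, p = 0.841, n = 5 each). PBS 4 had the lowest share, 3.92%. Without PBS 4 the difference between the groups turned to -0.639 percentage points.

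Of the 3 genes whose starts were compared, Cdkn2c had the largest difference between the groups, and it did not pass the test. Its upstream model, 2471 bases long, had 31.6, 32.8, 35.7, 36.0 and 49.5 TPM in Poly(A:U) 1 to 5, against 36.3, 29.1, 25.8, 54.1 and 37.7 TPM in PBS 1 to 5. The inner model, of 1106 bases, had 33.7, 38.5, 32.0, 29.4 and 32.3 TPM in Poly(A:U) 1 to 5, against 43.5, 49.5, 46.3, 55.8 and 35.9 TPM in PBS 1 to 5. For the inner model, 4 PBS libraries lay above every Poly(A:U) library and PBS 5 lay within their range. Both models hold the same 168 codons. The share of the upstream model was 52.6 ± 5.7% in Poly(A:U) libraries and 43.7 ± 7.0% in PBS libraries, a difference of 8.83 percentage points (exact two-sided permutation test, p = 0.0714, and 0.214 adjusted over the 3 start shares tested). The shares of Ccnd3 and Cdkn2c were chosen for testing after their values had been seen. Leaving out a library in turn gave 6.84 to 10.7 points, with an unadjusted p of 0.0476 without Poly(A:U) 2 and without PBS 5 (exact permutation test). With PBS 1 to PBS 3 left out the difference in Cdkn2c was 2.36 points (p = 0.619, exact permutation test), and their neutrophil marker sums are those given above. The part of other cells or of the library names in this difference was not tested.

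**Figure D2:**
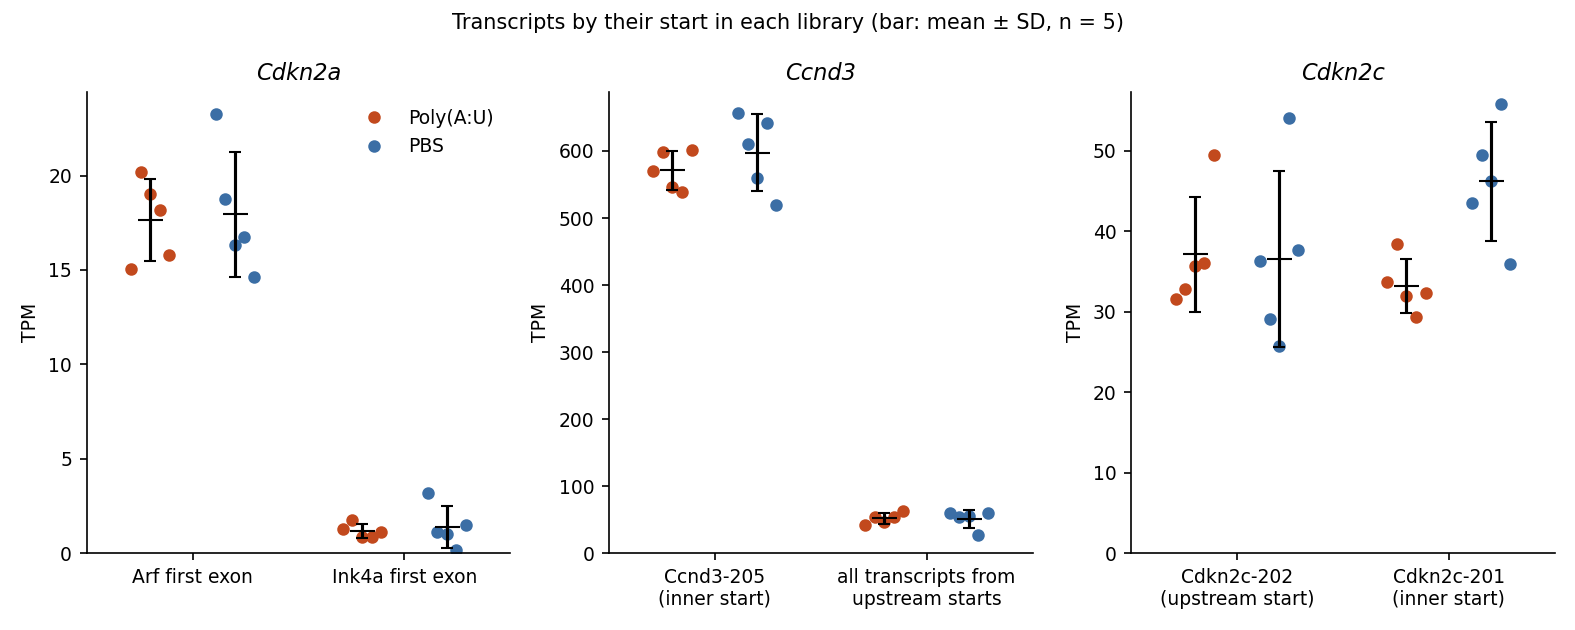
TPM of transcripts by their start in each library, for Cdkn2a, Ccnd3 and Cdkn2c, with Poly(A:U) libraries left of PBS libraries and bars for mean ± SD (n = 5). Arf transcripts outnumber Ink4a transcripts in all 10 libraries, the inner start of Ccnd3 outnumbers all its upstream starts, and the inner start of Cdkn2c averages 33.2 TPM in Poly(A:U) libraries and 46.2 TPM in PBS libraries.

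None of the 10 genes passed the test between Poly(A:U) and PBS libraries. By edgeR's quasi-likelihood test with Benjamini-Hochberg adjustment over all 13729 genes, 0 of the 10 were called at an adjusted p below 0.05. Over all genes this test called 0% of genes, DESeq2's Wald test called 0.0947% and limma voom with quality weights called 6.34%, and 0 of the 10 genes were among the calls of any of them. At an unadjusted p below 0.05 there were 0 of the 10 genes, against 7.3% of all genes. The groups overlapped for all 10, where 0.947% of all genes had groups that did not overlap. Fold changes are given throughout as the Poly(A:U) level over the PBS level, on the log2 scale. They were below 0 for 8 of the 10 genes, against 50.6% of all genes, and their median was -0.08, against -0.0024 over all genes. A 2-fold change lay outside the 95% interval of 9 of the 10 genes, all but Ccnd1. In a bulk library, fewer cells that express a gene and less RNA of it per cell cannot be told apart.

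**Figure D3:**
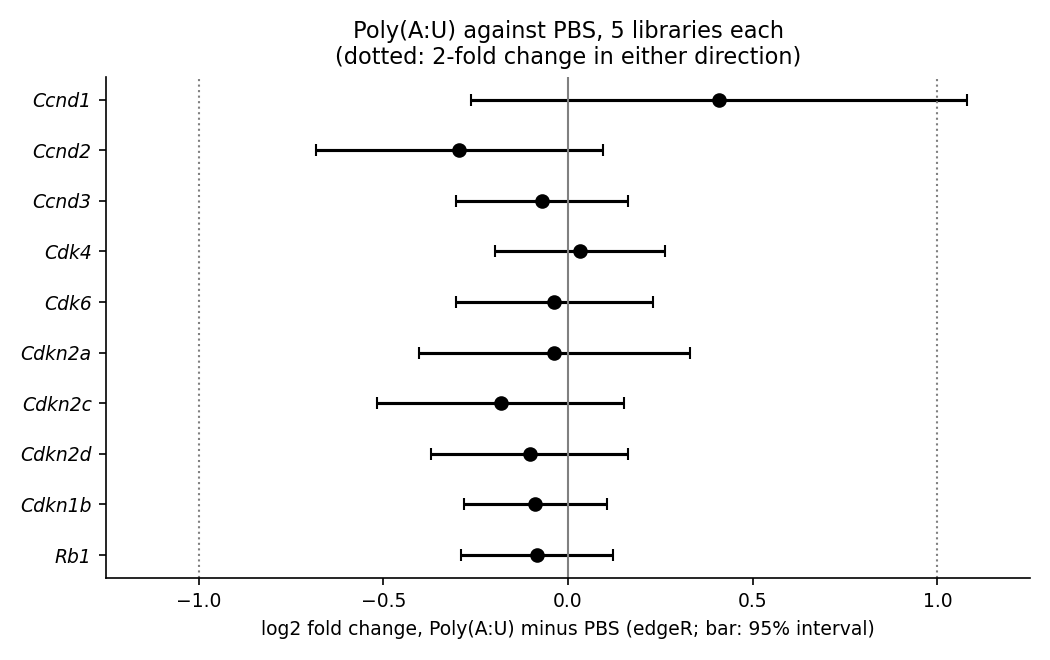
Log2 fold change of each gene, Poly(A:U) minus PBS (5 libraries each), from edgeR's quasi-likelihood fit, with bars for the 95% interval and dotted lines at a 2-fold change. All 10 intervals contain 0, and that of Ccnd1, from -0.26 to 1.08, is the only interval that reaches a 2-fold change.

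Among the D cyclins, Ccnd3 (chr17:47505051-47599691) was even across the libraries. It had 896, 1048, 855, 830 and 849 CPM in Poly(A:U) 1 to 5, against 966, 923, 874, 1031 and 830 CPM in PBS 1 to 5. The groups covered nearly the same range, and the coefficient of variation over the 10 libraries, 8.8%, was the lowest of the 10 genes. The log2 fold change was -0.07 ± 0.11 (SE), with a 95% interval from -0.30 to 0.16 and an adjusted p of 0.873 by edgeR's quasi-likelihood test.

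Ccnd2 (chr6:127125162-127152193), the D cyclin that mature B cells induce on stimulation, was low here. It had 22.9, 15.3, 14.3, 21.8 and 27.1 CPM in Poly(A:U) 1 to 5, against 21.01, 19.3, 23.2, 29.8 and 28.0 CPM in PBS 1 to 5. Poly(A:U) 2 and Poly(A:U) 3 were the lowest of the 10 libraries, and the other 3 lay among the PBS values. Its log2 fold change was -0.29 ± 0.18 (95% interval -0.68 to 0.10), with the smallest unadjusted p of the 10 genes, 0.127, and an adjusted p of 0.70 by edgeR's quasi-likelihood test. With offsets for the authors' effective lengths it was -0.03. The mature B cell marker sums given above were lower in all Poly(A:U) libraries than in the PBS libraries other than PBS 4, and their part in the Ccnd2 level was not tested. The authors' deposited table gives Ccnd2 36.7 CPM in Poly(A:U) 5, its highest value there.

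Ccnd1 (chr7:144929931-144939925) is the D cyclin with the least transcript here and the one most varied among the treated pups. It had 6.24, 5.89, 2.56, 2.30 and 7.21 CPM in Poly(A:U) 1 to 5, against 3.76, 3.47, 4.00, 3.00 and 3.72 CPM in PBS 1 to 5. Of the Poly(A:U) libraries, 3 lay above every PBS library and 2 below every PBS library, so the Poly(A:U) values enclose the PBS values. The standard deviation was 2.26 CPM in Poly(A:U) libraries and 0.38 CPM in PBS libraries. These values rest on 41 to 158 estimated reads per library. On the log2 scale the difference was 0.41 ± 0.31 (95% interval -0.26 to 1.08, adjusted p = 0.732 by edgeR's quasi-likelihood test), and it was -0.22 under limma voom with quality weights.

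**Figure D4:**
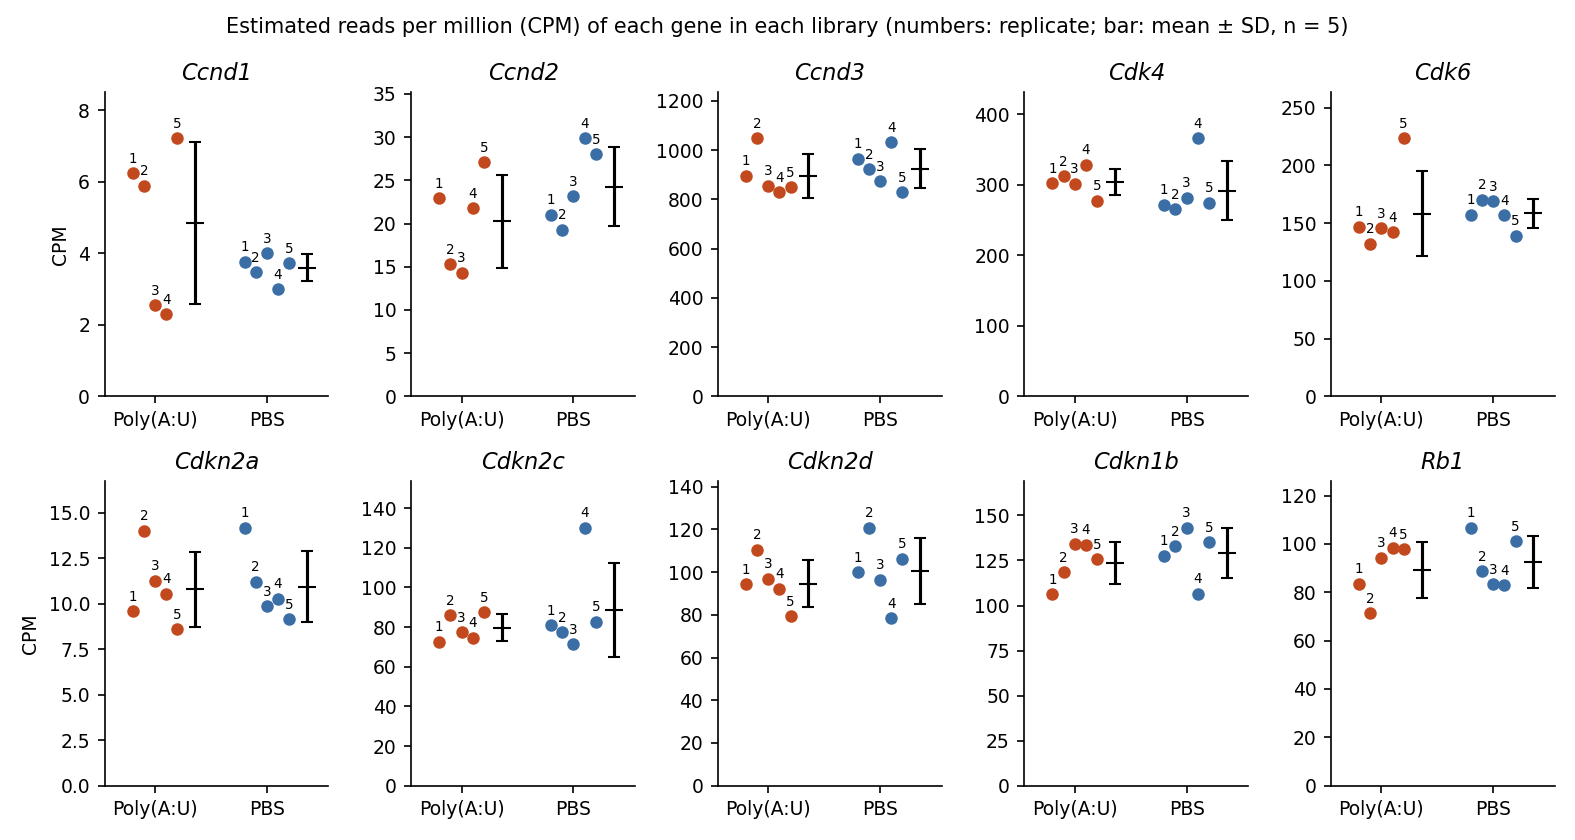
CPM of each gene in every library, with Poly(A:U) libraries left of PBS libraries, replicate numbers beside the points and bars for mean ± SD (n = 5), each panel with its own axis from 0. Ccnd1 spreads from 2.30 to 7.21 CPM in Poly(A:U) libraries and from 3.00 to 4.00 CPM in PBS libraries, Cdk6 is highest in Poly(A:U) 5 at 223 CPM, and Cdk4 and Cdkn2c are highest in PBS 4 at 366 and 130.1 CPM.

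Cdk4 (chr10:127063534-127067920), with Cdk6 the catalytic partner of the D cyclins, had 302, 312, 301, 329 and 278 CPM in Poly(A:U) 1 to 5, against 272, 265, 282, 366 and 274 CPM in PBS 1 to 5. The 4 PBS libraries other than PBS 4 lay between 265 and 282 CPM, and 4 of the Poly(A:U) libraries lay between 301 and 329 CPM, but PBS 4 was the highest of all. Between the groups the log2 fold change was 0.03 ± 0.11 (95% interval -0.20 to 0.26, adjusted p = 0.943 by edgeR's quasi-likelihood test). It was 0.14 without PBS 4, -0.10 with PBS 1 to PBS 3 left out and -0.18 in a fit with terms for the name parts that libraries share. Between libraries that share a name part, Cdk4 differed by 0.14 between Poly(A:U) 1 and PBS 5 and by -0.40 between Poly(A:U) 5 and PBS 4, on the log2 scale.

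Cdk6 (chr5:3341485-3531008) had 147, 132, 146, 142 and 223 CPM in Poly(A:U) 1 to 5, against 157, 170, 169, 157 and 139 CPM in PBS 1 to 5. Poly(A:U) 5 was far above all others, and the other 4 Poly(A:U) libraries lay below 4 of the 5 PBS libraries. The log2 fold change was -0.04 ± 0.12 (95% interval -0.30 to 0.23, adjusted p = 0.948 by edgeR's quasi-likelihood test), -0.18 without Poly(A:U) 5 and 0.24 with the shared name parts as terms. Poly(A:U) 5 also had the lowest B precursor marker sum of its group, 11686 CPM, and the lowest erythroid sum, 1360 CPM. The B precursor markers did not move together. Cd79a, Cd79b, Ighm, Igll1, Vpreb1 and Vpreb2 were the lowest of the group in Poly(A:U) 5. Pax5, Ebf1, Rag1, Rag2 and Dntt were the highest, at 1396, 767, 789, 212 and 159 CPM. The part of cell content in the value of Cdk6 was not tested.

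The INK4 inhibitors bind the same kinases. Cdkn2c, which encodes p18Ink4c (chr4:109660876-109667189), had 72.6, 86.1, 77.3, 74.5 and 87.5 CPM in Poly(A:U) 1 to 5, against 80.8, 77.5, 71.3, 130.1 and 82.7 CPM in PBS 1 to 5. Every Poly(A:U) library was below the PBS mean of 88.5 CPM, but that mean rested on PBS 4, and the groups otherwise overlapped. Its log2 fold change was -0.18 ± 0.15 (95% interval -0.52 to 0.15, adjusted p = 0.759 by edgeR's quasi-likelihood test) and 0.01 without PBS 4. PBS 4 had macrophage and T cell marker sums of 200 and 81.3 CPM, though Cd3d, Cd8a and Cd5 of the T cell list were not raised. The part of other cells in the Cdkn2c level of PBS 4 was not tested. PBS 1 to PBS 3, with the 71.3 to 80.8 CPM of Cdkn2c given above, had macrophage sums of 140 to 170 CPM that were mostly Lyz2. C1qa had 2.20, 0.728 and 1.81 CPM in these libraries, against 32.5 CPM in PBS 4.

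Cdkn2d, which encodes p19Ink4d (chr9:21288410-21291407), was the most abundant inhibitor per length. It had 94.4, 110.4, 96.9, 92.2 and 79.4 CPM in Poly(A:U) 1 to 5, against 99.8, 120.8, 96.4, 78.3 and 106.2 CPM in PBS 1 to 5. PBS 2 was highest and PBS 4 lowest, with the Poly(A:U) libraries between them. On the log2 scale the difference was -0.10 ± 0.12 (95% interval -0.37 to 0.16, adjusted p = 0.825 by edgeR's quasi-likelihood test).

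The sum of both Cdkn2a products (chr4:89274471-89294653) was 9.58, 14.0, 11.3, 10.53 and 8.58 CPM in Poly(A:U) 1 to 5, against 14.2, 11.2, 9.86, 10.3 and 9.14 CPM in PBS 1 to 5. PBS 1 and Poly(A:U) 2 were the highest libraries, and the group means, 10.8 ± 2.06 CPM in Poly(A:U) libraries and 10.9 ± 1.96 CPM in PBS libraries, were almost equal. Between the groups the log2 fold change was -0.04 ± 0.17 (95% interval -0.40 to 0.33, adjusted p = 0.963 by edgeR's quasi-likelihood test), and 0.07 without PBS 1.

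Cdkn1b (chr6:134920401-134925513) had 106.2, 118.6, 134.2, 133.7 and 125.8 CPM in Poly(A:U) 1 to 5, against 127.6, 133.0, 143.2, 106.5 and 135.3 CPM in PBS 1 to 5. The lowest values of both groups, Poly(A:U) 1 and PBS 4, were almost equal. The log2 fold change was -0.09 ± 0.09 (95% interval -0.28 to 0.11, adjusted p = 0.795 by edgeR's quasi-likelihood test). Rb1 (chr14:73183673-73325822), the substrate of the kinases, had 83.6, 71.4, 94.2, 98.5 and 97.8 CPM in Poly(A:U) 1 to 5, against 106.7, 88.8, 83.4, 82.9 and 101.1 CPM in PBS 1 to 5. Poly(A:U) 2 was the lowest and PBS 1 the highest, with the rest of both groups mixed between them. The log2 fold change of Rb1 was -0.08 ± 0.09 (95% interval -0.29 to 0.12, adjusted p = 0.813 by edgeR's quasi-likelihood test).

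Within the library pairs that share a name part, the difference had the same sign as the fit over all libraries for 7 of the 10 genes between Poly(A:U) 1 and PBS 5, for 5 between Poly(A:U) 5 and PBS 4, and for 3 in both. Ccnd1 was 1 of those 3, higher in the Poly(A:U) library by 0.75 and by 1.27 on the log2 scale. Ccnd2 was another, with differences of -0.29 and -0.14, and Cdkn2c the third, with -0.19 and -0.57. Each pair is a single library against another, with no replicate. The paired libraries are also part of the fit, so the signs agree in part by construction. The share of all genes with the same sign was not computed. Without PBS 4 the log2 fold change of Cdkn2c in the fit was 0.01.

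Genes around these 10 in the same pathway were taken from 9 lists with 71 genes, all of them tested. EdgeR's quasi-likelihood test and DESeq2's Wald test called 0 of the 71. In edgeR 4 had an unadjusted p below 0.05, against 7.3% of all genes. These 4, E2f5, E2f6, Mdm2 and Slbp, had higher values in Poly(A:U) libraries, as did 4.11% of all genes at that threshold. Groups that did not overlap were found for 2 of the 71, against 0.947% of all genes. Limma voom with quality weights called 13 of the 71, against 6.34% of all genes. Of these, 11 were higher in Poly(A:U) libraries, against 3.39% of all genes, among them Myc, Mdm2, Ccne1, Ccne2, E2f6, Pcna and Slbp, and 2 were lower, Foxo1 and Foxo3. In that fit PBS 4 and Poly(A:U) 5 had the lowest weights, 0.222 and 0.335, and Poly(A:U) 3 and PBS 2 the highest, 3.58 and 2.04. Without PBS 4, edgeR called 0 of the 71 and gave 26 of them an unadjusted p below 0.05, against 14.2% of all genes, and with PBS 1 to PBS 3 left out it called 0 and gave 4, against 5.86%. The list medians lay on both sides of 0. Of the 16 E2F target genes of S phase, 13 had values above 0 and the median log2 fold change was 0.07. Of the 10 E2F and DP factors 7 did, with a median of 0.10, and of the 8 genes of cyclin E, cyclin A, CDK2 and the CDK-activating kinase 7 did, with a median of 0.11. The Arf axis had 5 of 6 above 0 and a median of 0.18, MuvB and its partners 4 of 7 and 0.05, the other pocket proteins 1 of 2 and -0.08, and the other CDK inhibitors 1 of 3 and -0.50. The transcriptional regulators of the 10 genes had a positive value in 2 of 10 and a median of -0.19, and the genes of cyclin turnover in 3 of 9 and a median of -0.06. Over all tested genes 6784 values were positive and 6945 negative, with a median of -0.0024. With PBS 1 to PBS 3 left out, the median was -0.15 for the E2F targets, -0.08 for the E2F and DP factors, 0.03 for the cyclin E, cyclin A and CDK2 list, -0.10 for MuvB and its partners and 0.01 for cyclin turnover. The median of the regulators was 0.03 with terms for all name parts. Under a filter of 10 CPM, which leaves out Cdkn1c and Cdkn2b, the value of the other CDK inhibitors was the 0.25 of Cdkn1a alone. Cdkn1c averaged 0.92 CPM in Poly(A:U) libraries and 1.28 CPM in PBS libraries, and Cdkn2b 0.47 and 0.67 CPM.

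Pcna, the sliding clamp of DNA polymerase, showed where the libraries parted. It had 493, 499, 522, 572 and 489 CPM in Poly(A:U) 1 to 5, against 419, 428, 402, 504 and 458 CPM in PBS 1 to 5, a log2 fold change of 0.19 ± 0.09 (unadjusted p = 0.0501, adjusted p = 0.683, edgeR). PBS 1 to PBS 3 were the lowest and PBS 4, at 504 CPM, was among the Poly(A:U) values. With PBS 1 to PBS 3 left out the log2 fold change was 0.07. Slbp, which binds the stem-loop of histone messenger RNA, averaged 166 ± 10.7 CPM in Poly(A:U) libraries and 140 ± 13.7 CPM in PBS libraries, with groups that did not overlap, a log2 fold change of 0.22 ± 0.09 and an adjusted p of 0.677 by edgeR.

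Of the E2F family, E2f6, a repressor, averaged 28.4 ± 1.9 CPM in Poly(A:U) libraries and 22.9 ± 2.8 CPM in PBS libraries, with groups that did not overlap (log2 fold change 0.28 ± 0.10, unadjusted p = 0.0126, adjusted p = 0.677, edgeR). E2f5, which acts with the pocket proteins Rbl1 and Rbl2, averaged 12.5 ± 1.2 CPM in Poly(A:U) libraries and 9.70 ± 1.6 CPM in PBS libraries (log2 fold change 0.34 ± 0.13, adjusted p = 0.677, edgeR). E2f2, an activator and the E2F with the highest level per length, averaged 381 ± 30.3 CPM in Poly(A:U) libraries and 328 ± 71.5 CPM in PBS libraries. Of the pocket proteins, relatives of the retinoblastoma protein, Rbl2 had a log2 fold change of -0.25 ± 0.12 and Rbl1 of 0.09 ± 0.15. The E-type cyclins Ccne1 and Ccne2, which activate CDK2 after the D cyclins have acted, had 0.33 ± 0.15 and 0.56 ± 0.31, and Ccna2, the cyclin of S phase, had 0.01 ± 0.15. None of these passed edgeR's test after adjustment. With PBS 1 to PBS 3 left out, the log2 fold change was 0.14 for E2f6, 0.18 for E2f5, 0.02 for Ccne1, 0.03 for Ccne2 and -0.11 for E2f2. Without PBS 4 it was 0.93 for Ccne2 (unadjusted p = 0.000897, adjusted p = 0.214, edgeR), 0.46 for Ccne1, 0.33 for E2f6 and 0.32 for E2f5.

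Of the regulators, Myc, which raises Ccnd2 and Cdk4 in other cells, had 73.5, 78.0, 75.7, 81.9 and 116 CPM in Poly(A:U) 1 to 5, against 30.2, 30.8, 33.5, 96.1 and 68.4 CPM in PBS 1 to 5. PBS 1 to PBS 3 were far below every other library, and PBS 4 and PBS 5 lay among or near the Poly(A:U) values. Its log2 fold change was 0.68 ± 0.35 (unadjusted p = 0.0788, adjusted p = 0.695, edgeR), 0.01 with PBS 1 to PBS 3 left out and 1.04 without PBS 4 (unadjusted p = 0.00195, adjusted p = 0.214), and limma voom with quality weights called Myc at 1.08 (adjusted p = 0.0313). The same 3 libraries had the neutrophil marker sums of 737 to 1103 CPM, the macrophage sums of 140 to 170 CPM, the 3 lowest erythroid sums and a shared name start, whose part in the Myc level was not tested. Cdk4 had 272, 265 and 282 CPM in these libraries, 274 CPM in PBS 5 and 366 CPM in PBS 4. In the Poly(A:U) libraries it had 278 to 329 CPM. A relation between Cdk4 and Myc was not tested. Myb, a factor of haematopoietic progenitors, had a log2 fold change of 0.12 ± 0.09, and Stat5b, which transmits interleukin-7 signals, of -0.20 ± 0.10.

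On the Arf axis, Mdm2, which p19Arf inhibits and p53 induces, averaged 84.6 ± 5.5 CPM in Poly(A:U) libraries and 67.3 ± 13.4 CPM in PBS libraries, a log2 fold change of 0.30 ± 0.11 (unadjusted p = 0.018, adjusted p = 0.677, edgeR). PBS 5 had 91.0 CPM, inside the 79.3 to 93.5 CPM of the Poly(A:U) libraries, and the other 4 PBS libraries lay below it, between 59.6 and 63.2 CPM. Limma voom with quality weights called Mdm2 (adjusted p = 0.036), and the log2 fold change was 0.11 with PBS 1 to PBS 3 left out. Npm1, a nucleolar partner of p19Arf, had 0.14 ± 0.09 and Dmtf1, an activator of the Arf promoter, 0.21 ± 0.11. Cdkn1a, the p53 target p21, averaged 21.4 ± 1.8 CPM in Poly(A:U) libraries and 17.5 ± 3.2 CPM in PBS libraries (log2 fold change 0.26 ± 0.13, adjusted p = 0.695, edgeR). The log2 fold change of Cdkn1a was 0.06 with PBS 1 to PBS 3 left out and 0.38 without PBS 4. Cdkn1c, an inhibitor of the same family, was low, at 0.92 ± 0.22 CPM in Poly(A:U) libraries and 1.28 ± 0.38 CPM in PBS libraries.

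Among genes of cyclin turnover, Skp1a, a subunit of the SCF ubiquitin ligase, had a log2 fold change of 0.02 ± 0.11, Ambra1, the substrate receptor that targets D cyclins, of -0.13 ± 0.08, and Gsk3b, a kinase that marks cyclin D1 for export and destruction, of -0.11 ± 0.10. Of the MuvB complex, which represses cell cycle genes in resting cells together with a pocket protein, Lin37 had 0.19 ± 0.15, Lin9 0.11 ± 0.12 and Rbbp4, its most abundant subunit per length, -0.0013 ± 0.08. Their groups overlapped, and none passed edgeR's test.

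**Figure D5:**
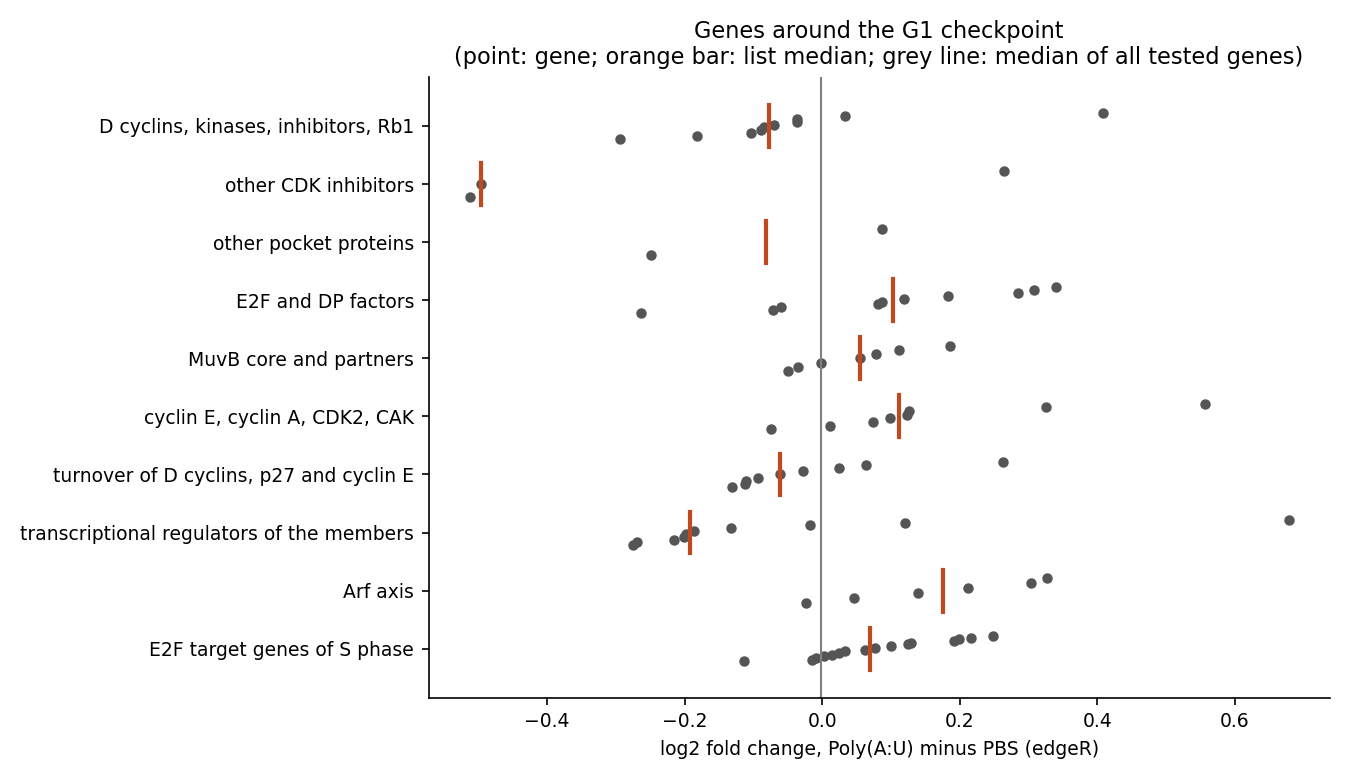
Log2 fold change (Poly(A:U) minus PBS, edgeR) of the 10 genes and of the genes of 9 lists around the G1 checkpoint, with each gene as a point, the list median as an orange bar and the median of all tested genes, -0.0024, as a grey line. The medians run from -0.50 for the other CDK inhibitors, a list of 3 genes, to 0.18 for the Arf axis, and most lists spread over both sides of the line.

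Across the 10 libraries, the genes whose levels were most like a given gene were found by Pearson's r of log2 CPM, as a description over libraries that share cell content and depth. For Ccnd3 they were Ddx41 (r = 0.956), Tagln2 (0.925) and Apeh (0.909), among 8448 genes compared. For Cdk4 they were Dhps (0.97), Cct7 (0.964) and Cops6 (0.961), for Cdk6 Nf1 (0.943), Echdc1 (0.921) and Mbd5 (0.917), and for Cdkn2c Tmem39b (0.967), Fads2 (0.965) and Vat1 (0.947). Vat1 averaged 7.52 CPM in Poly(A:U) libraries and 21.6 CPM in PBS libraries. It reached the required mean of 10 CPM only through the PBS libraries, so this difference is no result about treatment. Cdkn2c had 130.1 CPM in PBS 4 and 71.3 to 87.5 CPM in the other libraries, so PBS 4 weighs most in its r values. Within the 10 genes the closest to Ccnd3 was Cdkn2a (r = 0.705) and the closest to Cdk4 was Cdkn2c (r = 0.673), the pair that was highest in PBS 4.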

How the data were processed

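Bulk RNA sequencing of sorted leukemia initiating cells was compared between 5 Poly(A:U) and 5 PBS libraries. For each library the authors deposited an estimated count of reads, a TPM value and an effective length per transcript, per the file headers. DRAGEN, edgeR 3.38.4 and mm10 are named in the submitters' processing notes. Annotation release, counter settings and use of strand were not given in the sources used here. A further table that the authors deposited holds a normalized signal (CPM after edgeR scaling) for the genes of the whole series, and it served as an alternative.

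Each file listed 142333 transcripts, and 538 of them, with 0.046% to 0.0695% of the reads of a library, had no gene in GENCODE M21. Estimated counts were summed per gene and rounded to whole numbers. CPM are these sums scaled to a library total of 1000000, and gene TPM are sums of the deposited TPM. Reads of transcripts that share exons were divided by the authors' estimation, so levels of single transcripts are less certain than gene sums. Overlapping or antisense genes are uncertain where strand was not used.

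Genes were kept by filterByExpr (minimum count 10) and tested in R 4.3.3 with the quasi-likelihood test of edgeR 4.0.16, using TMM factors and a single term for treatment. P-values are two-sided, adjusted by Benjamini-Hochberg over all 13729 genes with a threshold of 0.05. SE were taken from the F statistic, and 95% intervals used the t distribution. Start shares were compared by exact permutation over libraries. Alternatives were DESeq2 1.42.0, limma 3.58.1, other scalings and filters, the replicate number as a block, terms for the library names, and each library left out. The terms for all parts of the library names and CPM per kilobase were chosen after seeing the data. The edgeR, DESeq2 and limma voom fits were also tested on simulated data with known changes.

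The 10 genes and the lists were chosen with earlier results of these data known. From each list the text names the 2 genes with the smallest unadjusted p and the gene with the highest mean TPM, and for at most 4 of the 10 genes the 3 protein-coding genes of at least 10 CPM most like it. Foxo1 and Foxo3 were named after their values were seen. A marker gene of the B precursor list is not reported here and was left out of its sum.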

Additional observations from a re-analysis of the deposited data

Results flagged for a closer look

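Some values stood apart from the other 4 libraries of their group, with a gap to the nearest of them above 0.71 of the group's range. About 1 group in 20 of normal values does this by chance, and 14 of the 100 examined here did. The 100 were not independent. CPM and TPM of the same gene, and shares and ratios of TPM, were counted separately, and most list genes were named for a small p. The 14 are thus not separate events, and their number cannot be set against 1 in 20. Of the 14, PBS 4 held 6, Poly(A:U) 5 held 5 and PBS 5 held 3.

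Poly(A:U) 5 was the highest of its group for Cdk6, at 223 CPM and 42.0 TPM, for Ccnd2 in TPM, at 10.6, and for Myc, at 116 CPM, and it had the lowest ratio of Cdk4 to Cdk6 TPM, 14.1. The log2 fold change of Cdk6 was -0.18 without it.

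PBS 4 was the highest of its group for Cdk4, at 366 CPM, and for Cdkn2c, at 130.1 CPM and 109.9 TPM. It was also the highest PBS library for Ccne2, at 28.7 CPM, Skp1a, at 206 CPM, and Stat5b, at 138 CPM.

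PBS 5 was the highest PBS library for E2f5, at 12.5 CPM, Mdm2, at 91.0 CPM, and Myb, at 492 CPM. No cause was tested for any of these single libraries.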

How the results depend on the processing

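None of the 10 genes was called under any of 22 alternatives. Of 219 values of the 10 genes under them, 199 had the sign of the value reported and 20 the opposite sign, and the lowest adjusted p was 0.169. Over all genes, edgeR called 0, DESeq2 13 and limma voom 870, and leaving out a library gave 0 to 18, the 18 without PBS 5. Limma voom called 13 of the 71 list genes, and 0 of them were called under the other alternatives. The replicate block called 0 genes, and the deviations of same-numbered libraries had correlations of -0.183 to 0.14. The labels do not say what the replicate numbers stand for, and these correlations cannot settle it. The cause of the differences between the fits was not tested.

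Signs turned as follows. Ccnd1 was -0.22 under limma voom. With the start of the library names as a term, Cdk4 was -0.11, Cdk6 0.053, Cdkn2a 0.12, Cdkn2d 0.0102, E2f2 -0.12, Lin9 -0.089, Ccna2 -0.27, Skp1a -0.14 and Gsk3b 0.0384. With PBS 1 to PBS 3 left out, Cdk4 was -0.10, Cdk6 0.057, Cdkn1b 0.0035, Cdkn2a 0.13, Cdkn2d 0.0142, E2f2 -0.11, Lin9 -0.084, Ccna2 -0.26, Skp1a -0.13, Gsk3b 0.042 and the Arf difference -1.17 points. With all name parts as terms, Cdk4 was -0.18, Cdk6 0.24, Rbl2 0.0070, E2f2 -0.061, Lin9 -0.0249, Lin37 -0.17, Ccne1 -0.11, Ccna2 -0.17, Skp1a -0.16, Ambra1 0.0321, Gsk3b 0.17, Npm1 -0.077, Pcna -0.0222 and Slbp -0.0131. Cdk6 was 0.11 with length offsets and 0.084 on the authors' deposited values. Rbbp4, at -0.0013, was 0.0219 by library totals, 0.00161 with length offsets, 0.000334 without a filter, 0.0363 under limma voom, 0.019 on the authors' deposited values and 0.00375 with the replicate block. As a log2 ratio, the Arf difference was -0.13. By CPM per kilobase, Cdkn1b ranked 5 and Cdkn2c 4.

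Leaving out a library in turn gave -0.000467 to 0.14 for Cdk4, -0.18 to 0.0024 for Cdk6, -0.18 to 0.068 for Cdkn2a, -0.25 to 0.0108 for Cdkn2c, -0.068 to 0.17 for Rbl1, -0.0266 to 0.062 for Rbbp4, -0.065 to 0.18 for Ccna2, -0.0274 to 0.15 for Skp1a, -0.78 to 2.01 points for Arf and -0.64 to 0.87 points for the upstream share of Ccnd3. Of 220 list medians, 17 moved beyond the spread between libraries. Signs of list medians turned too. With the start of the library names as a term the median was -0.081 for the E2F and DP factors, -0.11 for MuvB, 0.00677 for cyclin turnover and -0.15 for the E2F targets. With all name parts as terms it was -0.0465 for the E2F and DP factors, -0.12 for the E2F targets, -0.10 for MuvB, -0.0126 for the cyclin E, cyclin A and CDK2 list and 0.029 for the regulators. Under the filter of 10 CPM, which leaves out Cdkn1c and Cdkn2b, the other CDK inhibitors had 0.25, the value of Cdkn1a alone. The other pocket proteins, 2 genes, ran from -0.19 to 0.084. Ccnd1, with 41 to 158 reads, and Cdkn1c had no value under the filter of 10 CPM, and counting error limits them and Ink4a.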
